A study of Mus musculus with 28 samples.

Results

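The Fat1, Lpp and Bnc2 domains are 3 stretches of the mouse genome in which many sites that were open in embryonic fibroblasts were no longer detected as open after 10 days of reprogramming towards pluripotency. In build mm9 they are chr8:45000000-46150000, named for Fat1 and sequence before it, chr16:24000000-25000000, named for Lpp, and chr4:83000000-84330000, named for Bnc2 and its flank. The domains were chosen by the measured loss of peaks from fibroblasts to day 10. The counts of lost regions below, those past a genome-wide threshold included, therefore describe that choice and are no evidence of their own. Overlapping peaks of all 28 libraries were merged, which gave 276 regions in the domains, 99 around Fat1, 88 around Lpp and 89 around Bnc2, of 172177 regions in the genome.

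Fat1 encodes a very large atypical cadherin of the cell surface that acts in cell adhesion and migration. Lpp encodes a LIM-domain protein of focal adhesions, the contacts by which fibroblasts grip their substrate. Bnc2 encodes basonuclin 2, a zinc-finger protein of the nucleus that is found in fibroblasts and other mesenchymal cells. Distal open sites in and around a gene often act as enhancers, and fibroblast enhancers are known to close early in reprogramming. Adam34l, Adam34 and Gm5347 lie before Fat1 in the order of protein-coding genes of the RefSeq table, and Mtnr1a, F11 and Klkb1 after it. Lpp lies between Sst, Rtp2 and Bcl6 on one side and Tprg, Trp63 and P3h2 on the other. Bnc2 lies between Snapc3, Psip1 and Ccdc171 and, after it, Cntln, Sh3gl2 and Adamtsl1. That table is of build GRCm38, so it served for gene order only. No mm9 gene model, sequence or marker gene position was used, so whether a region was exonic, intronic or at a promoter was not analysed here. Nor was the deleted part of Tet2.

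ATAC-seq detects open chromatin because a transposase inserts sequencing adapters preferentially where DNA is accessible. The cells were primary Tet2-/- fibroblasts (MEFs) from day 12.5 embryos on a V6.5 129XBI/6 background, with doxycycline-inducible reprogramming factors (OKSM) and the rtTA activator. They had received Tet2-WT, the Tet2-E mutant that the series calls stalling, or the empty vector by pMXs retrovirus, and were collected at day 5 and day 10 of reprogramming in 2i/LIF medium with doxycycline on Mito-C-treated feeder MEFs. Each of these 6 groups held 4 libraries of cells sorted on SSEA1-RFP. The 4 libraries of untreated MEFs carried no vector, grew in MEF medium and have no sort in their labels, so day cannot be told apart from vector, medium, feeders and sort. All groups, controls included, lacked endogenous Tet2. The labels do not say whether replicates were separate cultures or embryos, so the spread between libraries may be technical.

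The libraries held 27918 to 72332 peaks each, and MEF replicate 1 held the longest list. Relative depth was read as the commonest background pileup of a list, with a mean of 0.503 ± 0.113 over the 4 MEF libraries, 0.865 ± 0.0731 over the 12 day 5 libraries and 0.522 ± 0.115 over the 12 day 10 libraries (SD). Depth was thus higher at day 5 than in MEFs, and MEF and day 10 libraries overlapped. At that background, the smallest summit pileup that became a peak was 5 in MEFs, 6 to 7 at day 5 and 5 to 6 at day 10. A region is taken as called in a library when at least 1 of its peaks overlaps it. A missing call means that the site was below this threshold, not that it was closed in every cell. Fewer cells with an open site and less opening per cell cannot be told apart in bulk libraries.

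Of the 276 regions, 106 were called in later libraries and in no MEF one, 116 in MEF libraries and in no later one, and 54 in both. The MEF-only regions numbered 41 in the Fat1 domain, 37 in the Lpp domain and 38 in the Bnc2 domain. These counts were not made over the genome, and they set 4 MEF libraries against 24 later ones, so nothing is read from them. Many regions rested on a single library, 109 of the 276 in the domains and 62223 of 172177 in the genome. Of the 109 in the domains, 52 came from a MEF library, 32 of them from MEF replicate 1, and 57 from a later library. The remaining 167 regions were called in at least 2 libraries. No region of the Fat1 or Lpp domain was called in all 28 libraries, and 3 regions of the Bnc2 domain were.

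**Figure D1:**
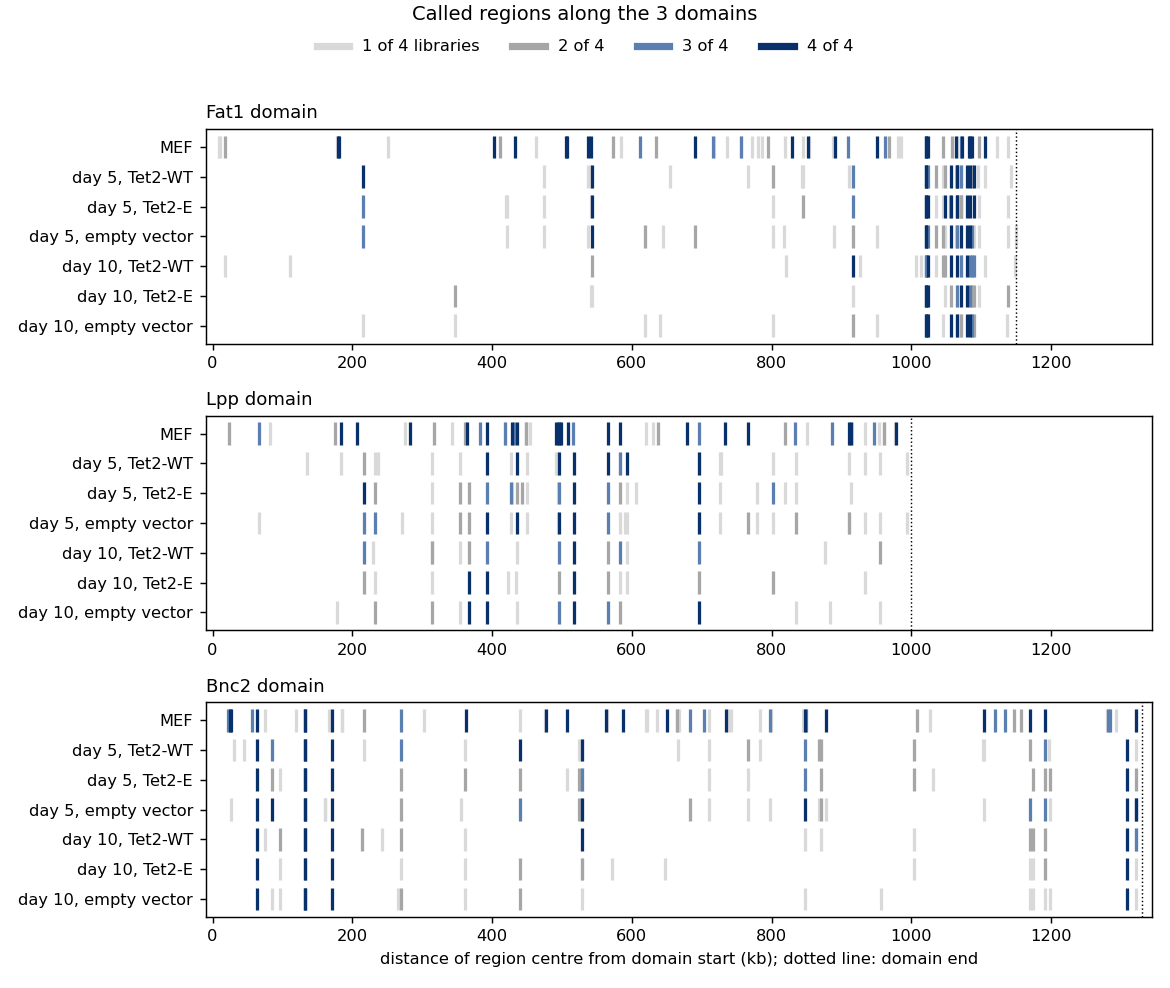
Regions called along the Fat1, Lpp and Bnc2 domains, by distance of the region's centre from the start of the domain in kb. Each line is 1 group of 4 libraries, ticks are regions, and darker ticks were called in more of the 4 libraries. MEF regions were spread along each domain, and at day 10 regions called in all 4 libraries of a group lay mostly at the end of the Fat1 domain, in the middle of the Lpp domain and towards both ends of the Bnc2 domain.

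The Fat1 domain gave 51, 27, 35 and 32 called regions in MEF replicates 1 to 4. Later libraries called 8 to 23 of its regions at day 5 (median 17.5) and 6 to 20 at day 10 (median 13). Within the Lpp domain the MEF libraries called 47, 22, 36 and 33 regions, day 5 libraries 9 to 19 (median 12.5) and day 10 libraries 2 to 13 (median 8.5). The MEF libraries called 44, 25, 39 and 35 regions in the Bnc2 domain, day 5 libraries 11 to 20 (median 15) and day 10 libraries 4 to 17 (median 10). All MEF libraries lay above all later libraries in each domain. The domains were chosen for loss from MEFs to day 10, so nothing is read from this order. Over the whole genome, MEF libraries called a mean of 53048.8 regions, day 5 libraries 45160.6 and day 10 libraries 33789.5. MEF replicate 2 held 41450 peaks in all, fewer than every day 5 library, and the part of list length was not tested.

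A constant MEF set was formed by the 60 regions called in 4 of 4 MEF libraries, 22 in the Fat1 domain, 19 in the Lpp domain and 19 in the Bnc2 domain. The genome held 27904 such regions. Of the 60 in the domains, 26 were called in 0 of 12 day 5 libraries (43.3%, against 23.9% in the genome) and 40 in 0 of 12 day 10 libraries (66.7%, against 38.6% in the genome). The complete losses, called in 0 of 24 later libraries, were 26 in the domains, with 11 around Fat1, 8 around Lpp and 7 around Bnc2, against 22.9% of the set in the genome. Since the domains were chosen for loss at day 10, these shares describe the choice and nothing is read from them.

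Loss was mostly seen by day 5. Of the 60 regions, 42 were called in at most 2 of 12 libraries at both days and are called early losses here (70.0%, against 36.6% in the genome). These were 17 in the Fat1 domain, 14 in the Lpp domain and 11 in the Bnc2 domain. Late losses, called in 10 or more libraries at day 5 and at most 2 at day 10, were 2 regions, 1 in the Lpp and 1 in the Bnc2 domain, against 0.824% in the genome. Kept regions, called in 10 or more of 12 libraries at both days, were 9 (15.0%, against 36.2% in the genome), with 4 around Fat1, 1 around Lpp and 4 around Bnc2. The other 7 regions lay in between. Among the 60, 14 were called in some day 5 library and in no day 10 library (23.3%, against 15.7% in the genome), and 0 the other way round (against 1.00% in the genome). The choice of domains for loss at day 10 bears on these counts too. Day 10 had fewer calling libraries than day 5 for 27 regions, more for 1 and as many for 32, a split that was not counted over the genome.

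**Figure D2:**
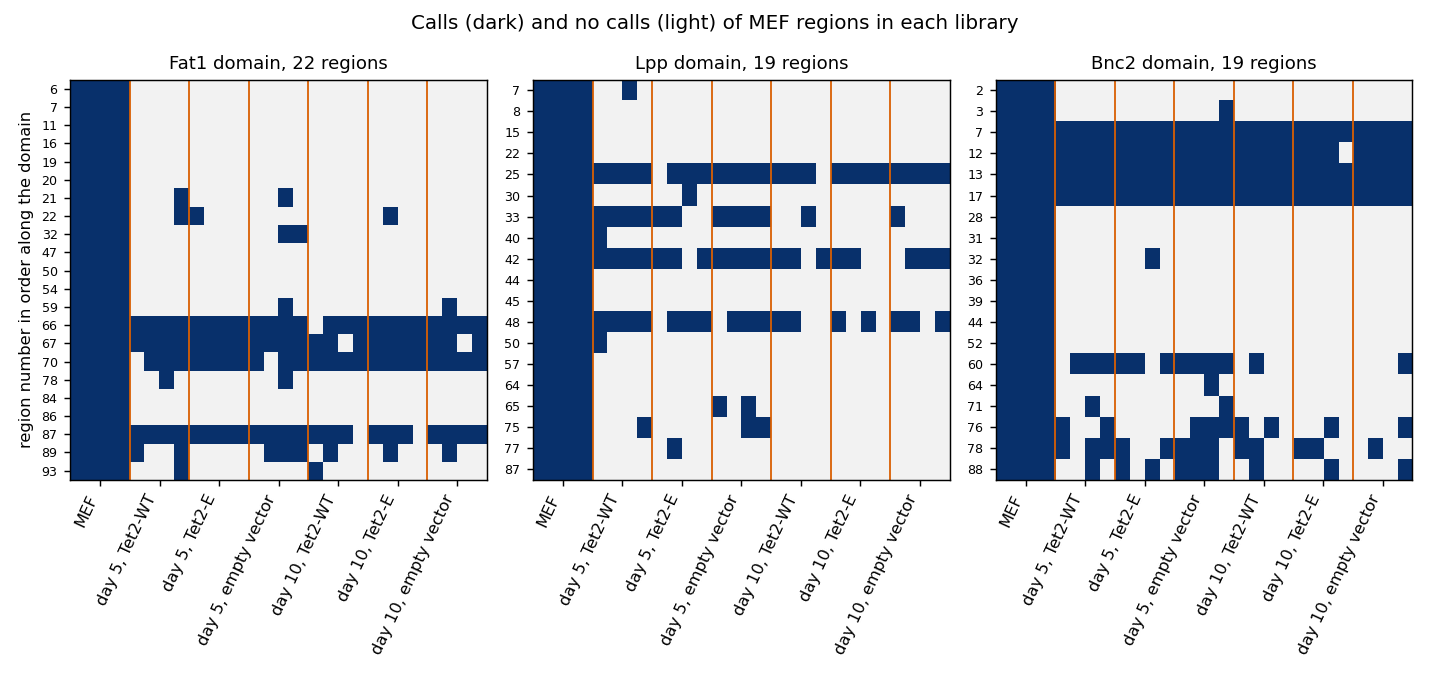
Calls of the 60 constant MEF regions in each library, 1 column per library and 1 line per region in order along the domain, with orange lines between groups of 4. Dark cells are calls. Most lines are dark only in the MEF columns, and the 9 kept regions form the nearly unbroken dark bands.

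In each later library, the share of the constant MEF regions that it called gives one value per domain. In the Fat1 domain 23.1% ± 7.86 were called at day 5 and 18.6% ± 4.93 at day 10. For Lpp the shares were 22.8% ± 6.48 at day 5 and 12.3% ± 4.10 at day 10. The Bnc2 domain had the highest shares of the 3 domains, 35.96% ± 6.67 at day 5 and 26.8% ± 6.53 at day 10. With lists of equal length the Bnc2 shares were 51.4% at day 5 and 48.6% at day 10, over 6 constant MEF regions, and with peaks that cover 50% of the region 26.2% and 13.1%, over 7. No genome share was computed in either of these settings. With full lists and any overlap, the whole-genome shares were 54.6% ± 3.95 at day 5 and 45.1% ± 3.37 at day 10. Each SD is over the 12 libraries of a day. The highest single library of a domain, 47.4% for Bnc2 at day 5, lay below the lowest whole-genome value at that day, 50.1%. At day 10 the highest value of a domain, 36.8% for Bnc2, lay below the lowest whole-genome value, 39.8%. Within each domain, day 5 and day 10 libraries overlapped. The choice of domains for loss at day 10 bears on these shares, so nothing is read from their distance to the genome.

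**Figure D3:**
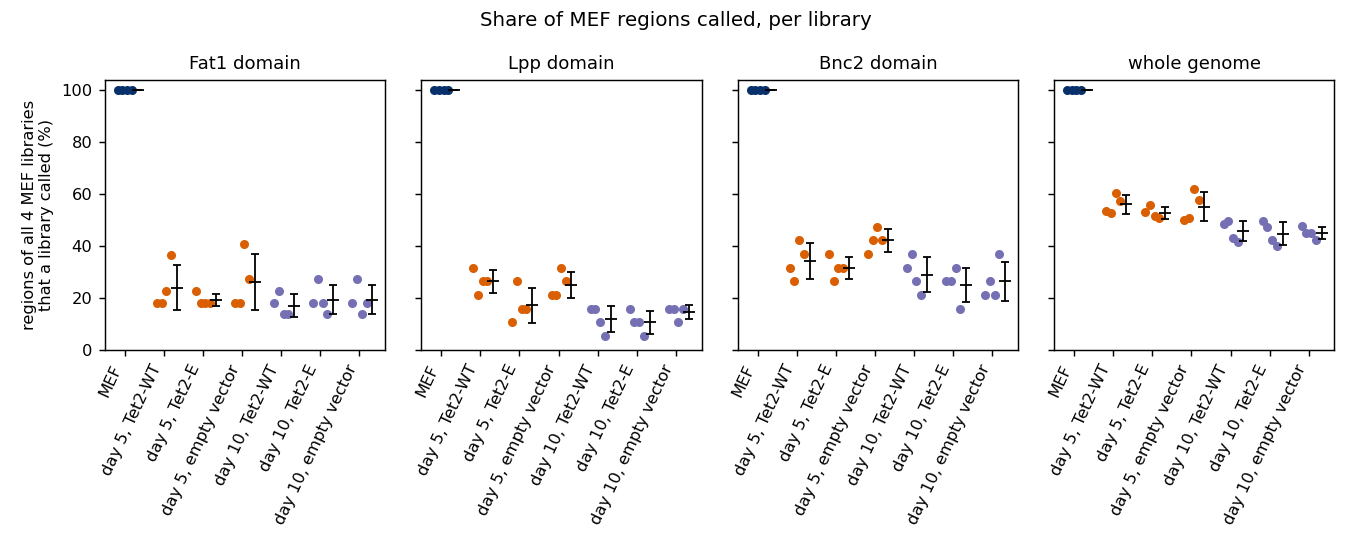
Share of the constant MEF regions that each library called, in percent, for the 3 domains and the whole genome. Points are libraries, and the bar beside them is the mean with its SD over 4 libraries. MEF libraries are at 100% by definition, and every later library lies lower in the domains than any does in the whole genome at the same day. The lists are used at full length. The domains were chosen for loss at day 10, so nothing is read from this separation.

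The test across all regions of the genome called in at least 2 compared libraries, an exact test of the number of calling libraries with Benjamini-Hochberg adjustment, put the domains as follows. At day 10 against MEFs, 69 of 144 tested regions of the domains were lost, against 22.6% of all regions tested, and 6 were gained, against 5.66%. The lost regions were 22 in the Fat1 domain, 25 in the Lpp domain and 22 in the Bnc2 domain, 45 of them from the constant MEF set and 24 from regions called in 3 of 4 MEF libraries. At day 5 against MEFs, 62 of 160 were lost, against 16.1% of all regions, and 8 were gained, against 9.81%. All 62 were also lost at day 10. These comparisons share the MEF libraries with each other and with the choice of the domains, so nothing is read from the counts of lost regions.

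The counts of lost regions moved with the libraries and peaks used. Leaving out replicate 1, 2, 3 or 4 of every group gave 41, 61, 43 or 43 lost regions at day 10 and 28, 43, 34 or 31 at day 5. The regions tested then numbered 123 to 133 at day 10, with 15.2% to 19.3% of all regions lost, and 139 to 151 at day 5, with 8.26% to 11% lost. Without MEF replicate 1 alone, 43 of 128 tested regions were lost at day 10 (against 15.6% of all regions) and 36 of 145 at day 5 (against 10.2%). With every list reduced to its 27809 strongest peaks, 33 of 89 were lost at day 10 (against 17.5%) and 31 of 90 at day 5 (against 16.3%).

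Among the complete losses of the Fat1 domain, chr8:45432811-45433268 was the strongest peak. It was called in none of the 24 later libraries, while its folds were 11.8, 13.7, 15.8 and 16.9 in MEF replicates 1 to 4. The fold is the authors' own value for a peak, its summit pileup plus 1 over the local background plus 1 in the same library. The pileups were 29, 26, 35 and 38 fragments, 96.7% of the way up a MEF list ranked by fold (median of the 4 lists). Next came chr8:45890728-45891135, with no later call and MEF folds of 10.9, 10.99, 12.4 and 11.1. A pair of complete losses lay close together at chr8:45506318-45506621 and chr8:45507667-45508034, with median MEF folds of 9.03 and 9.79. The last of the 5 strongest, chr8:45828753-45829152, had MEF folds of 11.6, 9.09, 6.69 and 10.1. None of these 5 regions lay within the last 100 kb of the domain.

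In the Lpp domain, chr16:24282390-24282772 had the highest median fold among complete losses, with 12.5, 10.95, 10.8 and 11.05 in MEF replicates 1 to 4 and no later call. Its pileups were 28, 16, 21 and 18. The region chr16:24679095-24679332 had MEF folds of 11.2, 7.13, 10.7 and 11.8, and chr16:24733239-24733754 had 9.98, 11.01, 10.2 and 12. A pair of sites, chr16:24498269-24498676 and chr16:24508033-24508264, in the middle of the domain, had median MEF folds of 6.98 and 9.66. The late loss of the Lpp domain, chr16:24434890-24435584, was called in 4 of 4 MEF libraries, 10 of 12 at day 5 and 2 of 12 at day 10. At day 5 it was called in 4 Tet2-WT, 2 Tet2-E and 4 empty-vector libraries.

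The strongest complete loss of the Bnc2 domain, chr4:83734141-83734432, had folds of 9.90, 5.89, 10.8 and 11.04 in MEF replicates 1 to 4, with pileups of 19, 8, 20 and 17, and no later call. The region chr4:83650363-83650600 had MEF folds of 6.32, 12.1, 8.42 and 9.82. The other 3 named complete losses, chr4:83362989-83363160, chr4:83476947-83477468 and chr4:83563007-83563316, had median MEF folds of 7.92, 7.77 and 7.34. The last had pileups of 12, 9, 7 and 11, close to the smallest pileup that became a peak at day 5. The late loss of this domain, chr4:83848057-83848477, was called in 4 of 4 MEF libraries, 10 of 12 at day 5 and 2 of 12 at day 10.

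Over all 26 complete losses, MEF pileups ranged from 6 to 38 with a median of 15.0. In 20 of the 26, every MEF library had a pileup above 7, the highest threshold of a later library at its genome background. The other 6 had a pileup of 6 or 7 in at least 1 MEF library, at or under that threshold.

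The rank of kept regions differed between the domains. The median rank by fold in the MEF lists was 66.5% for the 42 early losses, against 66.9% for early losses of the genome. For the 9 kept regions it was 52.5%, against 76.7% for kept regions of the genome. In the Bnc2 domain the medians were 66.7% for 4 kept regions and 59.9% for 11 early losses. The 4 kept regions of the Fat1 domain ranked low, 2.59% to 29.7%, although their median MEF pileups were 14.0 to 29.0, which by the definition of the fold means a high local background. Width followed the genome: the median was 383.5 bp for early losses, against 350 bp in the genome, and 678 bp for kept regions, against 699 bp. These values describe regions sorted by their own later calls, with no test.

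**Figure D4:**
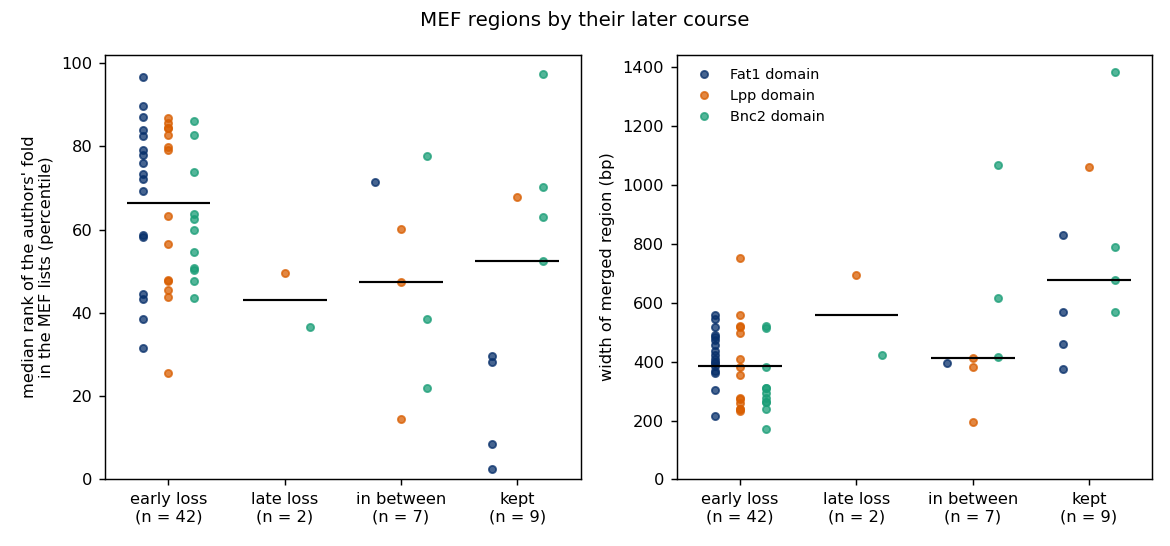
Rank of the authors' fold in the MEF lists (left, median percentile over 4 lists) and width of the merged region in bp (right) for the 60 constant MEF regions by later course. Points are regions, coloured by domain, and bars are medians. Kept regions of the Fat1 domain lie at the bottom of the left panel, and kept regions are wider than early losses by median, 678 bp and 383.5 bp.

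In the Fat1 and Bnc2 domains, kept regions lay close together. The part of the Fat1 domain from 1000 to 1100 kb held 8 of its 22 constant MEF regions. All 4 kept regions of this domain lay between 1020.6 and 1084.2 kb from its start, in a stretch of 64.3 kb near its end. That stretch held 22 regions in all, of which 4 were kept, 3 were lost at day 10 and 3 were gained at day 10. The widest region there, chr8:46020195-46021023, had calls in 12 of 12 libraries at day 5 and 11 of 12 at day 10, with MEF folds of 4.99, 5.56, 7.19 and 6.18. In the Lpp domain the single kept region, chr16:24392874-24393934, was also the widest constant MEF region with 1061 bp. It was called in 11 of 12 libraries at each later day, and its MEF folds were 8.10, 6.05, 8.56 and 8.74. The kept regions of the Bnc2 domain lay between 63.6 and 171 kb from its start, and 3 of them were called in all 28 libraries.

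These 3 were the regions of the domains with calls in every library. In the genome 27.7% of constant MEF regions were called in all 24 later libraries. The region chr4:83063204-83063992 had MEF folds of 15.3, 14.7, 14.8 and 15.9 and pileups of 46, 30, 33 and 37. It ranked at 97.3% in the MEF lists, and its median fold was 12.6 at day 5 and 11.3 at day 10. The region chr4:83132210-83132887 had median folds of 7.92 in MEFs, 7.89 at day 5 and 7.82 at day 10. The widest, chr4:83170719-83172100 with 1382 bp, had 7.08, 7.41 and 7.94 at the same stages. Folds belong to each library's own list and do not measure a change between libraries. The summits of the 9 kept regions shifted by a median of 27 bp between MEFs and day 10 (range 10 to 146 bp).

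Stretches without any constant region were longer at the later days than in MEFs. Constant here means called in 4 of 4 MEF libraries or in 10 or more of 12 later ones, and the ends of a domain count as ends of a stretch. In the Fat1 domain the longest was 222 kb in MEFs, 477 kb at day 5 and 1020 kb at day 10, the last of them cut off by the start of the domain. For the Lpp domain they were 183, 393 and 482 kb at MEF, day 5 and day 10, all 3 cut off by an end of the domain. For the Bnc2 domain they were 226, 460 and 1136 kb, all 3 between constant regions. The day 10 stretch of the Fat1 domain, from its start to 46020195, spanned 13 constant MEF regions, of which 11 were called in 0 of 12 day 10 libraries. In the day 10 stretch of the Bnc2 domain, from 83172100 to 84308187, 9 of 12 had no day 10 call. Loss at day 10 was the reason for choosing the domains, and such stretches were not measured over the genome. Nothing is therefore read from these lengths and counts.

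The gains past the threshold, 8 of 160 regions at day 5 and 6 of 144 at day 10, were 9 regions in all, of which 5 passed at both days. The Fat1 domain held 5 of the 9. A set of 3, 1 in each domain, had calls in all 24 later libraries and in no MEF library. They were chr8:46078804-46079071, with a median fold of 9.49 at day 5 and 8.32 at day 10, chr16:24517685-24518088, with 9.02 and 7.59, and chr4:84308187-84308676, with 8.05 and 8.71. Within the Lpp domain, chr16:24367290-24367899 appeared late, in 4 of 12 libraries at day 5 and 10 of 12 at day 10. The Bnc2 region chr4:83527901-83528192 had calls in 11 of 12 libraries at day 5 and 7 of 12 at day 10. Its gain at day 5 did not pass when replicate 1, 3 or 4 was left out of every group, with equal lists or with 50% cover.

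Gained regions often stood next to lost ones. For 6 of the 9, the nearest region lost at day 10 was within 10 kb (66.7%, against 21.8% of 10433 gained regions in the genome). The median gap was 2.80 kb, against 33.3 kb in the genome. The gained Fat1 region chr8:46064564-46065014 began 159 bp after the lost region chr8:46063916-46064404. Another, chr8:45542894-45543451, lay 1558 bp from the lost region chr8:45540820-45541335. Around Lpp, the late gain at chr16:24367290-24367899 lay 2559 bp from the lost region chr16:24364211-24364730. The domains were chosen for dense loss, so short distances to a lost region follow from the choice.

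Between day 10 and day 5, which were compared within vectors, 1 of 88 tested regions was lost (1% of all regions tested) and 0 were gained (0.144%). At an unadjusted p under 0.05 there were 11 regions, 12.5% of the 88, against 12.2% of all regions tested. The lost region was chr8:45542894-45543451 in the Fat1 domain, a transient site. It was called in 0 of 4 MEF libraries, 12 of 12 at day 5 and 3 of 12 at day 10, and the 3 were 2 Tet2-WT libraries and 1 Tet2-E library. A similar course was seen at chr8:45215653-45216019, with 0 of 4, 10 of 12 and 1 of 12 libraries. Its gain at day 5 did not pass without any 1 replicate number, without MEF replicate 1, with a replicate block, with the stricter q, with equal lists or with 50% cover. The day 10 loss of the transient site did not pass when any 1 replicate number was left out of every group or with a replicate block. No region of the genome passed this comparison in those settings, so they do not single out this site. The loss also did not pass with equal numbers of peaks or with peaks that had to cover 50% of the region.

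The vector was not part of the rule that chose the domains, although the day 10 libraries of all 3 vectors were. No region of the domains passed the exact test stratified by day in any of the 3 comparisons. Tet2-WT against the empty vector was tested in 79 regions, Tet2-E against the empty vector in 79 and Tet2-E against Tet2-WT in 76, with 0 regions past the threshold in each and 0% of all regions in the genome. At an unadjusted p under 0.05 the counts were 0, 1 and 0 regions, against 0.708%, 0.479% and 0.551% of all regions tested. The smallest exact p over the whole genome was 0.000408, 0.00612 and 0.00204 in these comparisons. With 4 libraries per vector and day, this test cannot give a p low enough for a single region alone to pass. The counts of 0 therefore do not show that the vectors acted alike.

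The region with the smallest p was at the end of the Bnc2 domain, chr4:84321454-84322020. At day 5 it was called in 0 of 4 Tet2-E, 0 of 4 Tet2-WT and 4 of 4 empty-vector libraries. At day 10 it was called in 0 of 4 Tet2-E, 3 of 4 Tet2-WT and 0 of 4 empty-vector libraries. For Tet2-E against the empty vector the exact test gave p = 0.0286, and 1 after Benjamini-Hochberg adjustment over all regions. In the Fat1 domain, chr8:46047964-46048316 had the smallest p of that comparison, an exact p of 0.0714, with 4 of 4 Tet2-E and 1 of 4 empty-vector libraries at day 5 and 1 of 4 and 0 of 4 at day 10. In the Lpp domain it was chr16:24802023-24802274, with an exact p of 0.120.

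Between Tet2-WT and the empty vector, the Lpp region chr16:24593611-24593925 had the smallest exact p, 0.0714. It was called in 4 of 4 Tet2-WT and 1 of 4 empty-vector libraries at day 5, and in 1 of 4 and 0 of 4 at day 10. The Fat1 region chr8:46089570-46090048 was called in 4 of 4 Tet2-WT and 1 of 4 empty-vector libraries at day 5, with an exact p of 0.133. The Bnc2 gain at chr4:83527901-83528192 was called at day 10 in 4 of 4 Tet2-WT, 2 of 4 Tet2-E and 1 of 4 empty-vector libraries, and the exact p between Tet2-WT and the empty vector was 0.143. For Tet2-E against Tet2-WT the late Lpp gain at chr16:24367290-24367899 had the smallest exact p, 0.0918. It was called in 2 of 4 Tet2-E and 0 of 4 Tet2-WT libraries at day 5 and in 4 of 4 and 2 of 4 at day 10. All of these had an adjusted p of 1.

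Loss was present with every vector. Of the 60 constant MEF regions, 34 were called in 0 of 4 Tet2-WT libraries at day 5 (56.7%, against 31.5% in the genome), 41 in 0 of 4 Tet2-E libraries (68.3%, against 36.3%) and 34 in 0 of 4 empty-vector libraries (56.7%, against 31.0%). At day 10, whose loss chose the domains, these counts were 42 with Tet2-WT (against 43.9% in the genome), 44 with Tet2-E (against 44.8%) and 42 with the empty vector (against 44.6%). In the Fat1 domain, single libraries at day 5 called 4, 4, 5 and 8 of 22 regions with Tet2-WT, 5, 4, 4 and 4 with Tet2-E, and 4, 4, 9 and 6 with the empty vector. The 3 groups overlapped. In the Lpp domain, 6, 4, 5 and 5 of 19 were called with Tet2-WT at day 5, 2, 5, 3 and 3 with Tet2-E, and 4, 4, 6 and 5 with the empty vector. Tet2-E included the lowest library, and all groups overlapped.

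In the Bnc2 domain, day 5 libraries called 6, 5, 8 and 7 of 19 regions with Tet2-WT, 7, 5, 6 and 6 with Tet2-E, and 7, 8, 9 and 8 with the empty vector. The mean shares were 34.2% ± 6.79 with Tet2-WT, 31.6% ± 4.30 with Tet2-E and 42.1% ± 4.30 with the empty vector (SD, n = 4 each). Over the whole genome they were 55.95% ± 3.49 with Tet2-WT, 52.7% ± 2.32 with Tet2-E and 55.1% ± 5.67 with the empty vector (SD, n = 4 each). Tet2-E and the empty vector met at 1 value in the Bnc2 domain, 7 regions. By day 10 the Bnc2 shares were 28.9% ± 6.79 with Tet2-WT, 25.0% ± 6.62 with Tet2-E and 26.3% ± 7.44 with the empty vector, and they overlapped throughout. No p is given for these shares, which sum over regions chosen with results known. The background pileup at day 5, the measure of depth, was 0.913 ± 0.0872 with Tet2-WT, 0.860 ± 0.0562 with Tet2-E and 0.821 ± 0.0556 with the empty vector (SD, n = 4 each), and its part in the shares was not tested.

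The ends of the domains are set by round coordinates. The first region inside the Fat1 domain, chr8:45009653-45009751, was called in 1 MEF library and no later one, and the nearest before it, chr8:44936605-44936711, had the same counts. After the last region inside, chr8:46149724-46149843 with 1 day 5 library, came chr8:46154204-46154630 with 4 of 4 MEF, 11 of 12 day 5 and 9 of 12 day 10 libraries. At the start of the Lpp domain chr16:24023684-24023913, inside it, had 2 MEF libraries and no later one, and chr16:23988603-23989208, outside it, had 3 of 4 MEF, 12 of 12 day 5 and 12 of 12 day 10 libraries. At its end, chr16:24994364-24994501 inside had 2 day 5 libraries, and chr16:25004863-25004934 outside had 1. The Bnc2 domain began with chr4:83021621-83021814, called in 3 MEF libraries, after chr4:82996657-82996960 outside with 2 MEF and 1 day 5 library. Past its last region, described above, chr4:84331582-84332156 was called in 0 of 4 MEF and all 24 later libraries.

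Flanks of equal length held fewer constant MEF regions in 5 of 6 cases. The 22 regions of the Fat1 domain stood against 1 before it, which had no day 10 call, and 24 after it, of which 9 had none. Those of the Lpp domain, 19, stood against 10 before and 7 after, of which 5 and 4 had no day 10 call. The Bnc2 domain, with 19, stood against 16 before and 6 after, of which 8 and 0 had no day 10 call. Among all windows of the same length along the genome, 58 of 2303 held at least the 22 losses of the Fat1 domain, 7 of 2649 at least the 25 of the Lpp domain, and 107 of 1995 at least the 22 of the Bnc2 domain. The median window held 9, 7 and 10 losses at these 3 lengths. Density of loss was the reason for choosing the domains, so this places them among other stretches and is no test.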

How the data were processed

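ATAC-seq peak lists of 28 libraries in 7 groups of 4 were used. The submitters' processing notes name Bowtie2, SAMtools, bedtools and MACS2, and mm9 as the build. Their versions, their settings and whether cut sites were shifted are not stated there. Peaks were called per library, and the deposited lists held a score, a fold (a ratio to local background), the authors' −log10 p and −log10 q, and a summit position for each peak. The highest deposited q was just under 0.01. Fold, score and p were used within a list only. Read totals were not used. Summit pileups were recovered from fold and −log10 p as whole numbers (tolerance 0.0002), and relative depth is an inference from the lists.

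Peaks on 20 chromosomes were merged over all libraries where they overlapped by 1 bp. Regions called in at least 2 compared libraries were tested genome-wide by 2-sided exact conditional tests of calling libraries (Fisher's exact test against MEFs, with vector or day as stratum otherwise), with Benjamini-Hochberg adjustment at 0.05, in Python 3.11.15 with scipy 1.17.1. Only the test of day 10 against MEFs was run on simulated data, and the tests with vector or day as stratum were not. The domains, members, lists and tests were chosen with earlier results of these data known.

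Regions named are, per domain, up to 5 complete losses by median MEF fold, up to 3 late losses, kept regions called in all libraries and gained regions, the smallest p per vector comparison, the widest constant MEF region and those nearest each end. The lost neighbours of gained regions, and the gained region chr8:46064564-46065014, were named after their values were seen. Alternatives were a stricter q, 50% cover, equal list lengths, other minimum numbers of libraries, trimmed domains, a replicate block and leaving out replicates. Marker genes and sequence motifs, which need an mm9 genome, were not analysed here.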

Additional observations from a re-analysis of the deposited data

Results flagged for a closer look

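In 4 cases a value stood apart within their group of 4 libraries by Dixon's test. In the Fat1 domain at day 5 with Tet2-E, replicate 1 called 22.7% of the constant MEF regions and the other 3 libraries 18.2% each, a difference of 5 regions against 4. In the Lpp domain at day 10 with the empty vector, replicate 3 called 10.5% and the others 15.8% each, 2 regions against 3. At day 5 with Tet2-E, replicate 2 called 19 regions of the Lpp domain and the others 10 to 11. At day 10 with Tet2-E, replicate 4 called 4 regions of the Bnc2 domain and the others 10 to 11. In all, 39 groups of values were examined. The rate of 1 in 20 groups by chance holds for continuous values and not for small whole counts with ties. A library that differs from 3 equal ones is always flagged, as in the first 2 cases, so no number of flags by chance is given.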

How the results depend on the processing

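Of 145 alternative values for the main counts and shares, 101 stayed within 1.5 times the reported count or 1 SD of the reported share, and 44 moved. Of 300 for named regions, 274 kept their side of the threshold and 26 no longer passed. The stricter −log10 q of at least 5 gave 59 lost regions at day 10 and 52 at day 5. With 50% cover, 2 regions were gained at day 10 and 3 at day 5. The shares then became 0% and 1.04% (Fat1, day 5 and day 10), 8.33% and 1.52% (Lpp) and 26.2% and 13.1% (Bnc2, over 7 constant MEF regions), since by construction peaks much narrower than the merged region no longer counted. Equal lists gave 33 lost regions at day 10, 31 at day 5 and 0 at day 10 against day 5, with shares of 14.7% and 12.2% (Fat1), 6.67% and 6.67% (Lpp) and 51.4% and 48.6% (Bnc2, over 6 regions). The cause was not tested. Regions called in at least 4 libraries gave 2 lost at day 10 against day 5. With MEF regions in at least 3 of 4 libraries, the Bnc2 shares were 25.6% and 18.3%. Leaving out each replicate number in turn gave 41 to 61 lost and 3 to 4 gained regions at day 10, 28 to 43 lost and 5 to 6 gained at day 5, and 0 lost at day 10 against day 5, where no region of the genome passed. The shares then ranged over 20.8% to 24.2% and 13.6% to 19.7% (Fat1, day 5 and day 10), 20.6% to 23.4% and 11.1% to 12.9% (Lpp), and 28.8% to 36.3% and 19.3% to 27.5% (Bnc2). Without MEF replicate 1, chosen after seeing the data, 43 and 36 regions were lost and 7 gained at day 5. The vector comparisons gave 0 regions under every alternative run, in the domains and in the genome. With so few libraries the exact test cannot reach a low p. The smallest over the genome was 0.005 when a replicate number was left out. A count of 0 is therefore no sign of stability.

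Libraries with the same replicate number correlated weakly, and whether the numbers pair the libraries was not settled. Of 84 pairs with the same number, 0 had a correlation of deviations over 0.1 (range -0.0185 to 0.0902), and 34 correlated best with their own number. For Tet2-WT and Tet2-E at day 10 the correlations were 0.0355, 0.0791, 0.0354 and 0.0902, each above that with any other number. A replicate block gave 43 lost regions at day 10, 36 at day 5 and 0 at day 10 against day 5, where no region of the genome passed. With it the day 5 gain of chr8:45215653-45216019 and the day 10 loss of chr8:45542894-45543451 did not pass. Depth limits the calls of shallow sites most, and motif and marker checks were not run.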
